A study of Helicoverpa armigera with 12 samples.

Results

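The RR cuticular proteins are the insect cuticle proteins that carry the Rebers and Riddiford consensus, and they were taken from the transcriptome of the cotton bollworm *Helicoverpa armigera*, a noctuid moth. Members were all assembled contigs whose best description in the nr protein database contained RR-1 or RR-2. This gave 113 of 99711 contigs, of which 52 were RR-1 and 61 were RR-2. The choice used the descriptions alone and no expression value. RNA was taken from whole bodies of reared animals, pooled into 12 libraries: 4 of 1st instar larvae on day 3 after hatching with 30 animals in each, 4 of 5th instar larvae on day 1 after ecdysis with 10 in each, and 4 of adults on day 1 after eclosion with 10 in each. Replicates 1 and 2 of the adults were male and replicates 3 and 4 female, and the labels give no sex for the larvae. No group was treated, and neither the labels nor the methods name a strain. Poly(A) RNA was sequenced as paired reads. The labels do not say whether the pools came from separate broods, so p-values measure the spread between pools. A whole-body value mixes all tissues, and fewer epidermal cells cannot be told apart from less RNA per cell.

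Insect cuticle is a composite of chitin fibres and proteins secreted by the epidermis, and it is built anew at each moult. The RR consensus is the part of these proteins that binds chitin. In other insects RR-1 proteins have mostly been found in soft and flexible cuticle, as in the body wall of caterpillars, and RR-2 proteins mostly in hard cuticle such as head capsules, thoracic plates and wings. A motif number in the descriptions is the number of the matching protein in the species of the database entry, mostly the silkworm *Bombyx mori*.

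The unit is FPKM, the number of fragments scaled by contig length and by the mapped fragments of the library. Read counts were not used here, and with the depth of single values unknown, intervals for counting error cannot be formed. Summed over all contigs, the larval libraries held 1074573 to 1509632 FPKM and the adult libraries 447094 to 688947, so that a stage comparison depends on the scaling. Contigs of actins, ribosomal proteins and elongation factor 1-alpha also had lower FPKM in adults, with a summed mean of 431330 in 1st instars, 184755 in 5th instars and 82083 in adults. Their part in the results was not tested. The stage labels were checked by storage proteins, the amino acid stores of late larvae, which summed to a mean of 93972 FPKM in 5th instars, 11.7 in 1st instars and 193 in adults. Yolk and chorion contigs summed to 1036 FPKM in females and 150 in males, although with 933 in 1st instars these words did not mark females alone. Of the 14 such contigs tested between the sexes as described below, 3 were lower in males and 0 higher. Their median log2 difference of males against females was 0.17. Testis and sperm contigs summed to 370 FPKM in males and 225 in females, but to 528 in 1st and 716 in 5th instars. These words therefore did not mark males alone.

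The 113 contigs belonged to 84 unigenes, that is, groups of contigs that the assembler treats as isoforms, and 22 unigenes held more than 1 RR contig. Fragments shared by isoforms are divided by estimation, so the split between contigs of a unigene is uncertain. The descriptions carried 71 different motif numbers, 37 in RR-1 and 34 in RR-2. The best match came from *B. mori* for 85 contigs, the monarch butterfly *Danaus plexippus* for 26, a silk moth for 1 and a parasitoid wasp for 1. The Pfam domain of insect cuticle proteins that binds chitin, which the choice did not use, was annotated on 42 of 52 RR-1 contigs and 44 of 61 RR-2 contigs. Swiss-Prot names, which were given for 83 contigs, mostly separated the classes. The larval cuticle proteins LCP-17, LCP-22 and LCP-30 of the silkworm, the pupal cuticle proteins of the tobacco hornworm and the endocuticle glycoproteins first described in locust abdomen were matched by RR-1 contigs. Locust cuticle proteins such as 8, 19 and 21, the larval/pupal rigid cuticle protein 66 of the cecropia moth and pro-resilin, the precursor of an elastic cuticle protein of flies, were matched by RR-2 contigs. A locust cuticle protein was matched by both classes.

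In FPKM, RR-1 RNA was most abundant in 1st instars, while RR-2 RNA was on a similar level in 1st instars and adult males. The summed FPKM of RR-1 was 5221, 6815, 6606 and 6265 in the 1st instar libraries, 3935, 710.0, 2585 and 1053 in the 5th instar libraries, 622 and 1025 in males, and 388 and 606 in females. The 4 1st instar libraries lay above all others, and the lowest 5th instar library lay among the adults. For RR-2 the sum was 629, 567, 646 and 565 in 1st instars, 505, 84.8, 172 and 133 in 5th instars, 559 and 607 in males, and 139 and 255 in females. Male replicate 2 lay within the 1st instar range and male replicate 1 just below it, whereas the females and all 4 5th instar libraries lay below both males. The RR-2 share of the RR sum, which does not depend on the scaling of libraries, was 8.91% ± 1.33 (SD, n = 4) in 1st instars, 9.88% ± 2.44 (n = 4) in 5th instars and 35.1% ± 9.29 (n = 4) in adults. It was 47.3% and 37.2% in males and 26.4% and 29.6% in females, so every adult library lay above every larval one, whose highest share was 11.4%. These shares are described without a test.

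**Figure D1:**
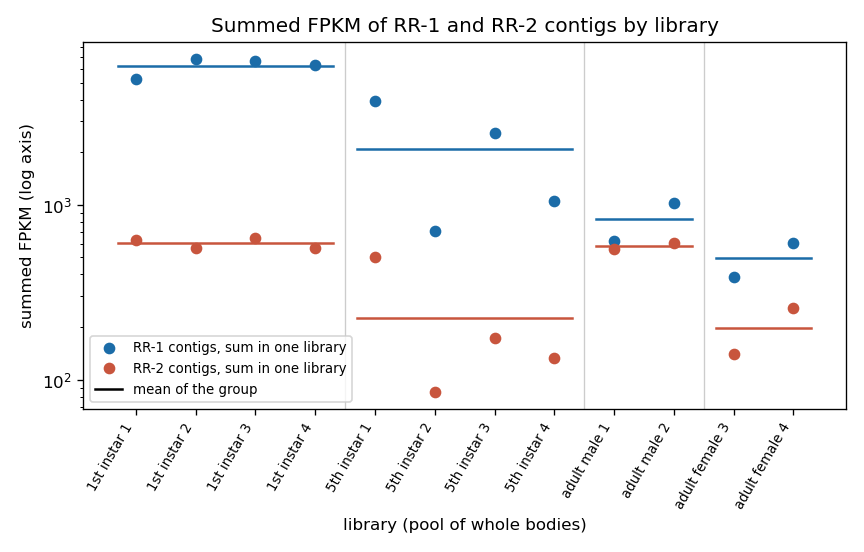
Summed FPKM (log axis) of the 52 RR-1 and 61 RR-2 contigs in each of the 12 libraries, with lines for the means of 1st instars, 5th instars, adult males and adult females. The RR-1 sum lies about an order of magnitude above RR-2 in 1st instars and close to it in adult male replicate 1 (622 against 559).

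A single contig, c11152_g1_i1, decided much of that pattern, since it held 68.5% to 80.0% of the RR-1 sum of a 1st instar library. Without c11152_g1_i1 and c48307_g1_i1, the contigs of each class with the highest mean over all libraries, the RR-2 share was 21.4% in 1st instars, 6.81% in 5th instars and 22.9% in adults. In 5th instars, however, the highest RR-1 contig was another, c37922_g1_i1. With the contig of each class left out that was highest in the stage itself, an alternative chosen after the data were seen, the share was 21.4% in 1st instars, 13.5% in 5th instars and 27.5% in adults, and the single 5th instar libraries were at 27.8%, 6.46%, 11.3% and 8.499%. Without the contigs highest over all libraries, single adult libraries were at 31.9% and 22.8% in males and 20.1% and 16.9% in females. Only male replicate 1 then lay above the 1st instar range of 18.6% to 23.1%. With the stage's own highest contigs left out, adults were at 37.3%, 28.6%, 24.5% and 19.5%. Female replicate 4 then lay within the 1st instar range, and 5th instar replicate 1 above both females. The separation of adults from larvae was thus not kept in either setting. With TPM, the FPKM rescaled so that every library has the same sum, RR-1 summed to 4455 ± 690 (SD, n = 4) in 1st instars, 1579 ± 1018 in 5th instars and 1129 ± 356 in adults. RR-2 summed to 430 ± 43.3, 173 ± 137 and 643 ± 294, so that on this scale the order of 1st instars and adults turned. The males, at 862 and 881, then lay above the 1st instar range of 374 to 479 for RR-2, and the females were at 257 and 571. The similar level of RR-2 in 1st instars and males thus held in FPKM only.

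RR-1 contigs were spread over the stages, and few RR-2 contigs had their highest mean in 5th instars. The highest mean was in 1st instars for 25 RR-1 contigs, in 5th instars for 14 and in adults for 13. Among RR-2 contigs the numbers were 28, 6 and 27. Of the contigs with a mean of at least 1 FPKM over all libraries, the numbers were 17, 13 and 9 of 39 in RR-1 and 17, 2 and 7 of 26 in RR-2, beside 36.9%, 34.6% and 28.5% of all such contigs. Most RR-2 contigs with their highest mean in adults therefore had a mean below 1 FPKM. RR-2 contigs were also lower, with a median mean level of 0.415 FPKM in 1st instars, 0.131 in 5th instars and 0.492 in adults, against 4.27, 3.15 and 0.679 for RR-1. All 12 libraries were above 0 for 27 RR-1 contigs and for 10 RR-2 contigs. Listed at 0 in all 4 libraries of a stage were 12 RR-2 contigs in 1st instars, 15 in 5th instars and 9 in adults, and 4, 5 and 1 RR-1 contigs.

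**Figure D2:**
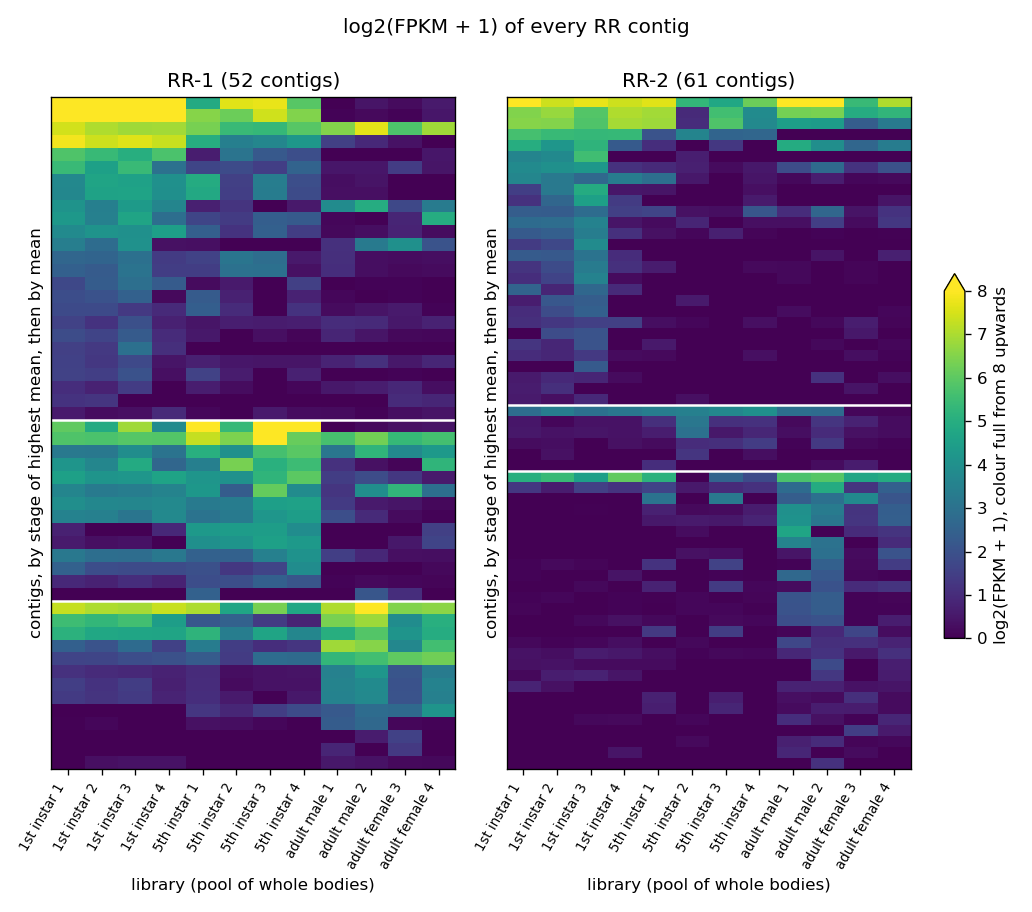
Each row is a contig and each column a library, with the colour giving log2(FPKM + 1); rows are ordered by the stage of the highest mean (1st instar, 5th instar, adults, parted by white lines) and then by mean level. The 5th instar block holds 14 of 52 RR-1 rows but 6 of 61 RR-2 rows, and many RR-2 rows are brightest in 1st instar replicate 3.

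Contigs with a mean of at least 1 FPKM over all libraries were tested with limma on log2(FPKM + 1), with Benjamini-Hochberg adjustment over the 27678 contigs that passed this filter. A log2 difference on this scale understates the change of low contigs. Of the members, 39 RR-1 and 26 RR-2 contigs passed the filter and 48 did not. The stage comparisons share libraries, so their calls are not independent of each other.

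Larval RR-1 contigs were led by matches to silkworm larval cuticle proteins. The contig c11152_g1_i1, RR-1 motif 42 with a match to the larval cuticle protein LCP-22, was at 3579, 5449, 4973 and 4940 FPKM in 1st instars, rank 65 of the 70626 contigs found there. It was at 28.4, 199, 213 and 59.7 FPKM in 5th instars, and in adults at 0 and 0.373 in males and 0.175 and 0.505 in females. The 3 stages did not overlap, and the 1st instar mean was 37.8-fold that of 5th instars. The log2 difference was 5.65 ± 0.54 (SE) between the larval stages (limma adjusted p = 1.31e-05) and -11.87 ± 0.54 for adults against 1st instars (limma adjusted p = 9.29e-09).

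In all, 5 tested RR-1 contigs were called higher in 1st than in 5th instars and lower in adults than in both. The contig c71133_g1_i1, motif 40 and a match to LCP-30, was at 565, 524, 604 and 538 FPKM in 1st instars, at 93.0, 73.5, 169 and 88.6 in 5th instars and at 0.045 to 0.387 in adults. For c36124_g1_i1, motif 6 and a match to LCP-17, the values were 231, 168, 194 and 159 FPKM in 1st instars, 30.8, 10.02, 11.8 and 18.0 in 5th instars and at most 1.86 in adults. The contig c71246_g1_i1, motif 53 and similar to the locust endocuticle glycoprotein SgAbd-2, was at 54.2, 41.1, 31.6 and 52.5 FPKM, then at 0.572, 7.38, 3.68 and 2.83, and it was listed at 0 in 3 adult libraries and at 0.399 in female replicate 4. In each of these contigs the stages did not overlap. The log2 differences between 1st and 5th instars were 2.46 ± 0.25 (SE), 3.45 ± 0.38 and 3.52 ± 0.42 (limma adjusted p = 2.26e-05, 4.06e-05 and 6.46e-05). The last of the 5, c85676_g1_i1 with motif 21, was lower and is named to complete the count. It was at 13.3, 16.2, 15.1 and 21.6 FPKM in 1st instars, 4.398, 1.26, 4.47 and 1.73 in 5th instars and 0.134 to 0.721 in adults, again without overlap (log2 difference between larval stages 2.24 ± 0.31 SE, limma adjusted p = 0.000212).

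Another match to LCP-22 had the opposite larval order. The contig c37922_g1_i1, RR-1 motif 39, was at 64.9, 28.7, 115 and 13.5 FPKM in 1st instars, at 3137, 39.9, 1436 and 393 in 5th instars and at 0 to 0.337 in adults. It was the highest RR contig of 5th instars, although replicate 2 lay within the 1st instar range. The log2 difference of 1st against 5th instars was -3.61 ± 1.103 (SE, limma adjusted p = 0.0225). It was no longer called under 5 alternatives. Among them were fits without 1st instar replicate 2 or 4 or 5th instar replicate 1 or 3 (adjusted p 0.0571, 0.0698, 0.0574 and 0.0661). For adults against 5th instars the log2 difference was -8.77 ± 1.103 (limma adjusted p = 8.79e-05).

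A pair of RR-1 motif 45 contigs was found mainly in 5th instars. The contig c18449_g1_i1 was at 14.8, 16.8, 22.3 and 18.6 FPKM in 5th instars and c18449_g2_i1 at 19.0, 20.4, 21.0 and 14.0. In 1st instars their values ranged from 0 to 0.885, and in adults they were at 0 except in females, where c18449_g1_i1 had 0.441 and 2.13 and c18449_g2_i1 had 1.83 in replicate 4. Neither overlapped between 5th instars and another stage, with log2 differences of -3.93 ± 0.34 and -3.87 ± 0.36 (SE) for 1st against 5th instars (limma adjusted p = 5.46e-06 and 1.11e-05). Both had passed the filter through 5th instars alone, with a mean under 1 FPKM over the other libraries. The contig c61619_g1_i1, motif 56, had the second highest 5th instar mean, with 155, 85.5, 267 and 69.9 FPKM against 52.2 to 58.2 in 1st instars and 39.8 to 77.5 in adults. Its difference of -1.16 ± 0.38 between larval stages (limma adjusted p = 0.0287) was lost without any single 1st instar library or without 5th instar replicate 1 or 3 (adjusted p 0.0561 to 0.0669), and with no filter or a replicate block (0.0570 and 0.0514). Its difference of -1.25 ± 0.38 for adults against 5th instars (limma adjusted p = 0.0276) was lost under 10 alternatives, with TPM (adjusted p = 0.713), quantile normalization (0.861), a fit of the groups compared (0.0979), no filter (0.0667), a replicate block (0.0530), and without 5th instar replicate 1 or 3, male replicate 1 or either female library (adjusted p 0.0552 to 0.0597).

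Other RR-1 contigs were higher in adults than in both larval stages. The contig c35249_g1_i1, RR-1 motif 37 and similar to the locust endocuticle glycoprotein ABD-4, was at 38.6 and 47.2 FPKM in males and 65.7 and 75.4 in females, against 2.12, 2.16, 2.68 and 2.99 in 1st instars and 3.90, 1.60, 6.06 and 5.77 in 5th instars. All adult libraries lay above all larval ones, with log2 differences of 4.01 ± 0.33 (SE) from 1st instars and 3.49 ± 0.33 from 5th instars (limma adjusted p = 1.63e-06 and 7.32e-06). The contig c58857_g1_i1, motif 54, was at 114 and 93.1 FPKM in males, 11.9 and 46.5 in females, 1.94 to 6.02 in 1st instars and 1.09 to 9.20 in 5th instars. Adults again did not overlap with larvae (log2 differences of 3.45 and 3.89, each ± 0.68 SE, limma adjusted p = 0.00149 and 0.00117). Its Swiss-Prot name belongs to a viral protein, whereas its nr description and Pfam domain are those of a cuticle protein.

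**Figure D3:**
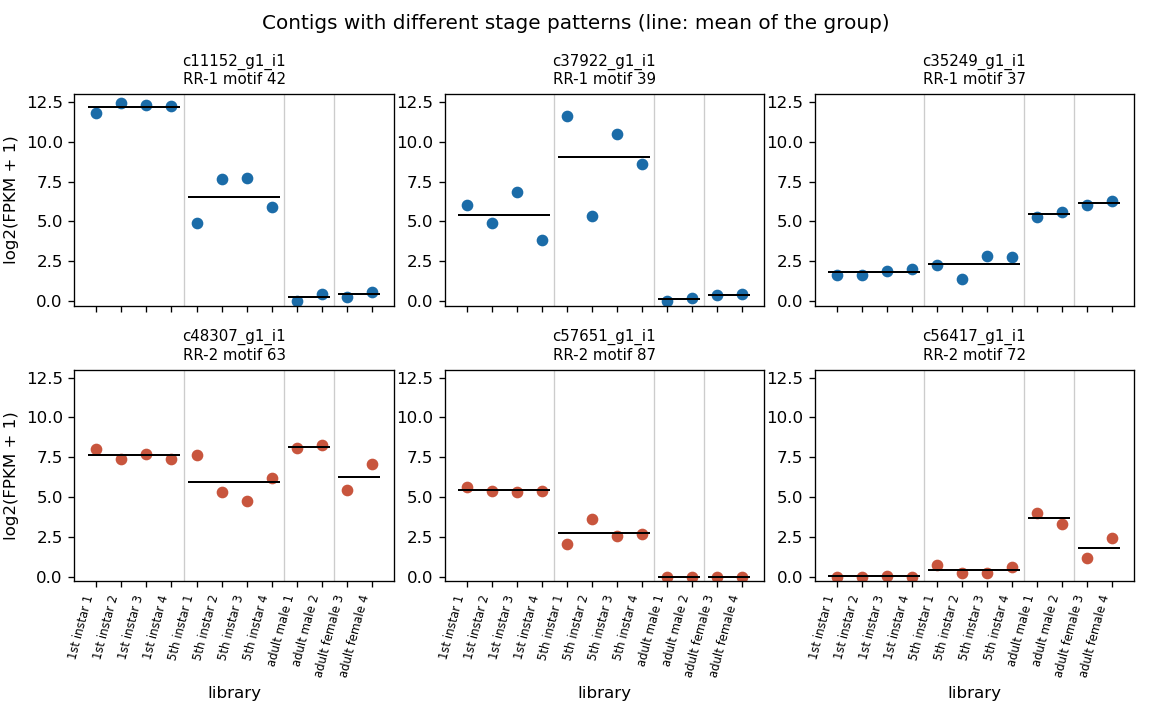
log2(FPKM + 1) of 6 contigs in the 12 libraries, with lines for the means of 1st instars, 5th instars, adult males and adult females. The LCP-22 matches c11152_g1_i1 and c37922_g1_i1 peak in different larval stages, c35249_g1_i1 (38.6 to 75.4 FPKM) and c56417_g1_i1 (1.30 to 15.3 FPKM) are highest in adults, and c57651_g1_i1 is listed at 0 in every adult library.

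Some RR-1 contigs were high on both sides of the 5th instar. The contig c61587_g2_i1, motif 17 and similar to cuticle protein 3, was at 44.6, 38.0, 46.3 and 21.1 FPKM in 1st instars, 3.48, 4.54, 1.60 and 0.736 in 5th instars, 83.4 and 114 in males and 13.8 and 32.3 in females. Its 5th instar libraries lay below all others, with log2 differences of 3.504 ± 0.60 (SE) for 1st instars and 3.85 ± 0.60 for adults (limma adjusted p = 0.000947 and 0.000499). The contig c61587_g1_i1 of the same assembly component, motif 19, was the highest RR-1 contig of adults, at 132 and 271 FPKM in males and 87.8 and 97.7 in females. It was at 120 to 160 FPKM in 1st instars and 24.8 to 127 in 5th instars, where replicate 1 lay within the ranges of the other stages. For c60686_g1_i4, motif 23, the levels were 116 to 175, 39.3 to 81.1 and 53.5 to 204 FPKM in 1st instars, 5th instars and adults. The larval differences of these contigs, 1.44 ± 0.52 for c61587_g1_i1 and 1.31 ± 0.38 for c60686_g1_i4 (limma adjusted p = 0.0444 and 0.0173), did not hold throughout. The former was lost under 10 alternatives, among them those without any single 1st instar library or 5th instar replicate 2 or 4 (adjusted p 0.0713 to 0.116). The latter was lost without 1st instar replicate 1 or 5th instar replicate 3 (adjusted p = 0.0534 and 0.0504). Neither contig passed for adults against 5th instars, where the groups overlapped (limma adjusted p = 0.0741 and 0.0861).

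More tested RR-1 contigs were lower than higher in adults. Some passed the filter through 1 stage alone, with a mean under 1 FPKM over the other libraries, namely 3 through 1st instars, 3 through 5th instars and 4 through adults. Against 5th instars 18 of the 39 tested contigs were lower and 9 higher, where 19.7% and 7.31% of all tested contigs were lower and higher, beside shares of 46.2% and 23.1% in RR-1. Here 3 of the 18 had passed the filter through 5th instars alone and 4 of the 9 through adults alone. The median log2 difference of RR-1 was -1.25, against -0.19 for all contigs tested. Against 1st instars 20 were lower and 6 higher, beside 31.6% and 14.1% of all contigs, with a median of -1.60 against -0.12. Of the 20, 3 had passed the filter through 1st instars alone, and of the 6, 4 through adults alone. The 6 that were higher belonged to 4 unigenes, namely motifs 37, 54, 55 with 3 isoforms, and 33. Between the larval stages 12 RR-1 contigs were higher in 1st instars and 7 lower, with 21.7% and 18.4% of all contigs, so the share that was lower (17.9%) was close to the background. Of the 12, 1 had passed the filter through 1st instars alone, and of the 7, 3 through 5th instars alone. All these counts are given as descriptions. With TPM, under which the median of all contigs moved to 0.53 for adults against 5th instars and 0.66 against 1st instars, the splits were 12 higher and 16 lower, and 11 higher and 16 lower. No RR-1 contig of motif 42, 40, 6, 39 or 45 lost its call in adults against 5th instars under any alternative.

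The highest RR-2 contig passed no stage comparison. The contig c48307_g1_i1, RR-2 motif 63 and similar to the larval/pupal rigid cuticle protein 66, was at 253, 166, 210 and 168 FPKM in 1st instars, 197, 38.5, 26.3 and 72.0 in 5th instars, 267 and 305 in males and 41.7 and 132 in females. It was the highest RR contig of adults. Both males lay above all other libraries, but 5th instars and adults overlapped, and no comparison passed the test (limma adjusted p = 0.203 for adults against 5th instars, 0.0702 between larval stages and 0.163 between the sexes). It was called higher in adults than in 5th instars with TPM, with quantile normalization and without female replicate 3 (adjusted p = 0.0142, 0.0181 and 0.0384), and higher in 1st than in 5th instars with a replicate block and without 5th instar replicate 1 (adjusted p = 0.0408 and 0.0162).

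RR-2 motif 59 was matched by 3 contigs that moved together within 5th instars. The contig c52893_g3_i2 was at 117, 0.939, 47.2 and 13.5 FPKM there, c52893_g3_i1 at 113, 1.01, 54.0 and 12.5, and c52893_g2_i1 at 34.2, 0, 4.90 and 2.50. Replicate 1 was highest and replicate 2 lowest for all 3 contigs, which may share fragments. In 1st instars they were at 57.1 to 131, 54.9 to 121 and 21.9 to 66.8 FPKM. In adults c52893_g3_i2 was at 30.1 to 83.4 FPKM and c52893_g2_i1 at 25.4 to 58.8, whereas c52893_g3_i1 was at 4.16 to 21.6. The contig c52893_g2_i1 was higher in adults than in 5th instars (log2 difference 2.94 ± 0.84 SE, limma adjusted p = 0.0220), with 1 overlapping 5th instar library, and this call was lost without 5th instar replicate 4, male replicate 1 or male replicate 2 (adjusted p = 0.0590, 0.0556 and 0.0535), with no filter (0.0514) and in a fit of the groups compared (0.0850). It was also higher in 1st than in 5th instars (2.88 ± 0.84, limma adjusted p = 0.0183), a call lost without 1st instar replicate 4 (adjusted p = 0.0554). The contig c52893_g3_i1 was lower in adults than in 1st instars (-2.81 ± 1.02, limma adjusted p = 0.0399), a call lost with TPM (adjusted p = 0.171), quantile normalization (0.135), no filter (0.0756), a pseudocount of 0.1 (0.0535) and a replicate block (0.0516), and without any single 1st instar library or either female library (adjusted p 0.0568 to 0.0934).

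Larval RR-2 RNA without adult RNA was seen for c57651_g1_i1, motif 87 and similar to the locust cuticle protein 19. It was at 49.2, 40.6, 38.8 and 40.2 FPKM in 1st instars and at 3.10, 11.1, 4.97 and 5.29 in 5th instars, and it was listed at 0 in all 4 adult libraries. The log2 difference between larval stages was 2.71 ± 0.28 (SE, limma adjusted p = 2.33e-05), and the calls of this contig held under every alternative. Motif 87 itself was not absent from adults, since the isoforms c51987_g1_i2 and c51987_g1_i1 of another unigene had adult means of 3.15 and 0.911 FPKM. The contig c92266_g1_i1, motif 65, was at 11.7, 8.47, 5.54 and 9.28 FPKM in 1st instars, 6.60, 0.419, 0 and 0.373 in 5th instars and 0.091 to 0.552 in adults. Its 1st instar libraries lay above all adults (log2 difference of adults -2.96 ± 0.52, limma adjusted p = 0.000690) but overlapped with 5th instar replicate 1. The contig c52626_g2_i1, motif 127 and similar to a locust cuticle protein, was low in 5th instars only, with 1.05, 0, 1.45 and 0 FPKM there, 30.6, 17.6, 35.6 and 3.79 in 1st instars, 29.0 and 14.4 in males and 5.26 and 9.16 in females. Its 5th instar libraries lay below all others (log2 differences of 3.58 ± 0.66 for 1st instars and 3.13 ± 0.66 for adults, limma adjusted p = 0.00143 and 0.00387).

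A further set of RR-2 contigs appeared in 1st instars and varied among their pools. It was picked after its values were seen and is described without a test. The assembly components c58276 and c59747 held 9 RR-2 contigs with the motif numbers 97, 98, 99, 100 and 103, for which Swiss-Prot gave mostly the locust cuticle protein 8. Their summed FPKM was 12.3, 33.8, 106 and 4.54 in 1st instar replicates 1 to 4, at most 1.17 in a 5th instar library and at most 0.603 in an adult library. Replicate 3 was thus far above replicate 4. For c58276_g2_i1, the highest of them, the 1st instar values were 1.77, 8.48, 29.3 and 0.403 FPKM. The contig c49967_g1_i1 of another component, motif 76 and also similar to cuticle protein 8, had 11.2, 12.8, 46.1 and 0 FPKM.

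**Figure D4:**
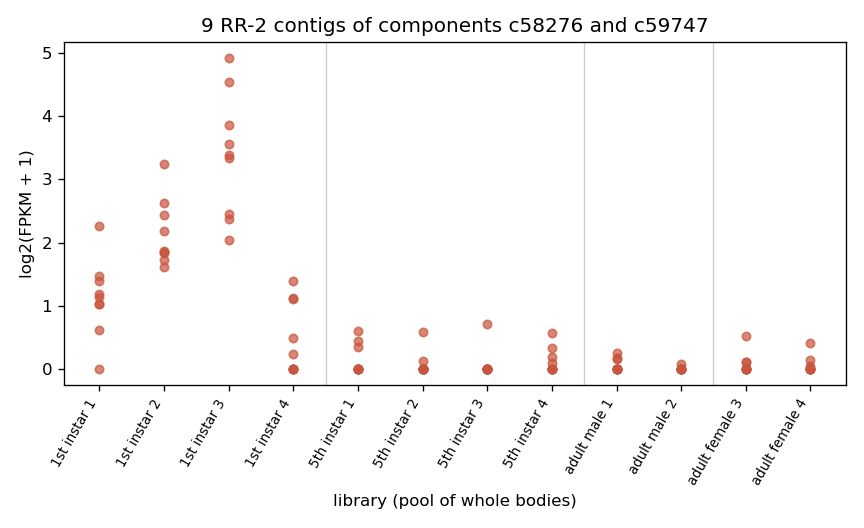
log2(FPKM + 1) of the 9 RR-2 contigs of the components c58276 and c59747, 1 point per contig and library. In 1st instar replicate 3 the contigs are at 3.11 to 29.3 FPKM, in replicate 4 at 0 to 1.63 FPKM, and 5th instars and adults stay below 0.65 FPKM.

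The order of the 1st instar pools was also counted over the tested contigs with a mean of at least 1 FPKM in 1st instars. Among the 20 such RR-2 contigs, replicate 3 was highest in 13 and replicate 4 lowest in 11. Without the contigs of c58276, c59747 and c49967, which had drawn attention to the order, these were 6 and 5 of 13. Of the 34 such RR-1 contigs, replicate 3 was highest in 16 and replicate 4 lowest in 17. Over all 20382 contigs at this level replicate 3 was highest in 21.0% and replicate 4 lowest in 20.8%. With TPM, replicate 3 was highest in 13 RR-2 and 18 RR-1 contigs, beside 26.9% of all contigs, and replicate 4 lowest in 13 and 20, beside 34.4%. The contigs are not independent, since many may share fragments or vary together.

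RR contigs differed more between pools of a stage than other contigs did. The median SD of log2(FPKM + 1) in 1st instars was 0.36 for RR-1, 0.89 for RR-2 and 0.19 for all contigs at that level. In 5th instars it was 0.86, 1.25 and 0.56, and in adults 0.85, 1.104 and 0.61. RR-2 lay above RR-1 in each stage. These are descriptions, as the classes also differ in level.

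Adult RR-2 RNA beyond motifs 63 and 59 was found in low contigs. The contig c56417_g1_i1, RR-2 motif 72 and similar to the larval cuticle protein A2B of the mealworm beetle, was at 15.3 and 9.02 FPKM in males and 1.30 and 4.28 in females. It was at 0 to 0.036 FPKM in 1st instars and 0.158 to 0.661 in 5th instars, so adults and larvae did not overlap (log2 differences of 2.73 ± 0.48 and 2.29 ± 0.48 SE, limma adjusted p = 0.000666 and 0.00385). This contig and the next, c53341_g1_i1, had passed the filter through adults alone, with a mean under 1 FPKM over the larval libraries. Their p-values for adults against larvae are therefore given as descriptions. The contig c53341_g1_i1, motif 73 and similar to the mealworm protein A1A, was listed at 0 in all larval libraries and at 10.8 and 7.04 FPKM in males, 0 in female replicate 3 and 0.983 in female replicate 4. It was called higher in adults (1.89 ± 0.64, limma adjusted p = 0.0303 against 1st and 0.0468 against 5th instars). These calls were lost under 8 and 9 alternatives. Among them were fits without any single library of the larval stage compared or either male library (adjusted p 0.0581 to 0.129), no filter and a fit of the groups compared (0.0505 to 0.135). Its other isoform, c53341_g1_i2, had an adult mean of 6.87 FPKM. That isoform was called against neither 1st nor 5th instars (limma adjusted p = 0.0812 and 0.127). All 6 contigs matching the mealworm larval proteins A1A, A2B or A3A had their highest mean in adults, in spite of the larval name. Motif 134 gave another pattern in c52038_g1_i1, with 0 in all 1st instar libraries, 7.33, 0, 8.34 and 0 FPKM in 5th instars, 4.18 and 6.77 in males and 12.8 and 3.32 in females. It was higher in adults than in 1st instars (2.81 ± 0.72, limma adjusted p = 0.00734), and 5th instar replicates 1 and 3 were the pools in which it was found.

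A single RR-2 contig was higher in 5th than in 1st instars. This was c64198_g2_i1, motif 143, at 1.09, 7.99, 1.16 and 1.22 FPKM in 5th instars and 0.409, 0.095, 0.324 and 0.299 in 1st instars, with adults at 0.142 to 1.37. Larval groups did not overlap (log2 difference of 1st instars -1.27 ± 0.45 SE, limma adjusted p = 0.0433), but the call was lost under 9 alternatives. Among them were fits without any single 1st instar library or 5th instar replicate 2 (adjusted p 0.0631 to 0.0934). The contig had passed the filter through 5th instars alone, with a mean under 1 FPKM over the other libraries.

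Of the 26 tested RR-2 contigs, 9 passed the filter through 1st instars alone, with a mean under 1 FPKM over the other libraries, so counts of contigs higher in 1st instars are given as descriptions. Between the larval stages 14 of the 26 tested contigs were higher in 1st instars (53.8%, beside 21.7% of all contigs), these 9 among them. Only 1 was lower (beside 18.4%), and it had passed the filter through 5th instars alone. The latter count was 0 without any single 1st instar library and 2 without 5th instar replicate 4. Against 1st instars 13 were lower in adults (50.0%, beside 31.6%), again with these 9, and 5 higher (19.2%, beside 14.1%), with a median log2 difference of -1.45. Of the 5, 3 had a mean under 1 FPKM over the larval libraries. The 13 became 8 without 1st instar replicate 2 or 3 or female replicate 3, and the 5 became 3 without any single 1st instar library or male replicate 1. Against 5th instars 6 were higher in adults (23.1%, beside 7.31%), of which 3 had a mean under 1 FPKM over the larval libraries, and 2 lower (7.69%, beside 19.7%), with a median of 0.24. The 6 became 3 without 5th instar replicate 4 or male replicate 1. With TPM the split was 10 higher and 1 lower against 5th instars, and 6 higher and 9 lower against 1st instars.

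More RR-2 contigs were higher in adult males than in females. Of 26 tested, 4 were higher in males (15.4%, where 6.82% of all contigs were) and 0 were lower (beside 5.56%). Among these 4, c53341_g1_i1 and both isoforms of c56417_g1 had a mean under 1 FPKM over the larval and female libraries. They thus passed the filter through the males, so the counts are given as descriptions. At an unadjusted p under 0.05 the limma counts were 6 and 0. With TPM and with quantile normalization the counts were again 4 and 0, but a fit of the adult groups alone and a mean of at least 5 FPKM each left 1 RR-2 contig higher. Without female replicate 3 only 2 were higher, and without male replicate 1 there was 1 lower. Of the 39 tested RR-1 contigs 1 was higher in males and 0 lower, and at an unadjusted p under 0.05 limma gave 6 and 2. In this class no contig was higher without male replicate 1, male replicate 2 or female replicate 3, but 6 were without female replicate 4, and 4 were lower without female replicate 3. Each sex had 2 pools, and 2 against 2 cannot reach an exact permutation p below 0.05, so these calls rest on the spread estimated over all 12 libraries.

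The smallest adjusted p between the sexes among RR contigs was for c52828_g1_i1, RR-2 motif 126 and similar to cuticle protein 19. It was at 6.36 and 5.98 FPKM in males and 0.110 and 0.090 in females, a 61.7-fold ratio of means, while 1st instars had 6.28, 9.51, 6.67 and 8.07 and 5th instars 9.39, 10.1, 12.1 and 14.8. Females thus stood apart from every other library, and males lay at the lower edge of the 1st instar range. The log2 difference of males against females was 2.70 ± 0.26 (SE, limma adjusted p = 3.47e-05), and it stayed called under each alternative (adjusted p up to 0.0276). Its call as lower in adults than in 5th instars (-2.15 ± 0.59, limma adjusted p = 0.0185) was lost with TPM (adjusted p = 0.0883) and in a fit of the groups compared (0.0852). That against 1st instars (-1.60 ± 0.59, limma adjusted p = 0.0440) was lost with TPM (adjusted p = 0.303), quantile normalization (0.0882), no filter (0.0849), a fit of the groups compared (0.102) and a replicate block (0.0595), and without any single 1st instar library or either female library (adjusted p 0.0714 to 0.116).

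The other calls between the sexes were for contigs already described. The contig c53341_g1_i1 had the largest difference of the RR-2 contigs, 2.79 ± 0.31 (SE, limma adjusted p = 0.000124), which was lost in the fit of the adult groups alone (adjusted p = 0.106). Its other isoform, c53341_g1_i2, overlapped between the sexes and was not called (1.28 ± 1.05, limma adjusted p = 0.531). For c56417_g1_i1 the difference was 1.88 ± 0.38 (limma adjusted p = 0.00886), lost without male replicate 1 or female replicate 3 (adjusted p = 0.0710 and 0.0546), with a pseudocount of 0.1 (0.0630) and in the fit of the adult groups alone (0.231). The other isoform of this unigene, c56417_g1_i2, was at 15.8 and 7.86 FPKM in males and 1.34 and 4.37 in females and also passed. In RR-1 the call was for c61587_g2_i1, with 2.15 ± 0.59 (limma adjusted p = 0.0409). It was lost under 8 alternatives and kept under 3. The losses included TPM (adjusted p = 0.0839) and the fits without male replicate 1, male replicate 2 or female replicate 3 (adjusted p = 0.119, 0.185 and 0.267). Contigs below the filter, named after their values were seen, included the 3 isoforms of c65215_g1, RR-2 motif 132, which were at 3.17 to 5.58 FPKM in males and 0.051 to 0.104 in females. The RR-1 contig c60707_g4_i1, motif 48, was at 4.00 and 5.54 FPKM in males and 0.104 and 0.051 in females.

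**Figure D5:**
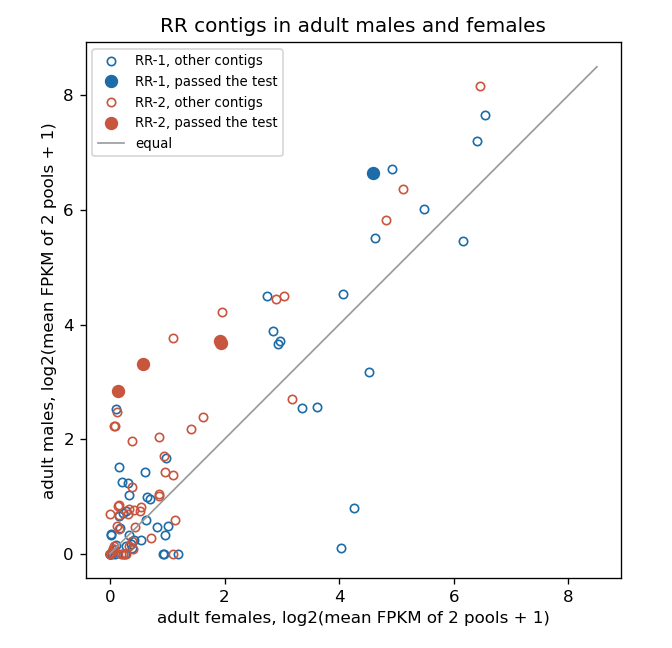
Mean of the 2 male pools against mean of the 2 female pools, both as log2(mean FPKM + 1), for all RR contigs; filled points passed the test, and the line marks equal levels. The 4 filled RR-2 points and the filled RR-1 point lie above the line.

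Over all members, tested or not, both males lay above both females for 16 of 61 RR-2 contigs and both females above both males for 2, and for RR-1 the numbers were 22 and 6 of 52. Among the tested contigs they were 10 and 0 of 26 for RR-2 (38.5% and 0%) and 18 and 4 of 39 for RR-1 (46.2% and 10.3%), beside 29.8% and 20.2% of all tested contigs. With TPM the tested RR-2 contigs gave 9 and 0, the tested RR-1 contigs 9 and 7, and all tested contigs 18.2% and 30.6%. For all contigs the direction that was more frequent thus turned with the scaling, and for RR-2 it did not. The tested RR-2 contigs include those named above that passed the filter through the males. Chitin enzymes and tanning enzymes, which synthesize or modify the other components of cuticle, were higher in males in 5 and lower in 0 of 37 tested, and higher in 8 and lower in 0 of 42, beside 6.82% and 5.56% of all contigs. Of the 127 tested contigs of other cuticle proteins 6 were higher in males and 2 lower.

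The contigs with an RR label were a small share of all RNA described as cuticular. The Pfam domain of insect cuticle proteins was annotated on 155 contigs in all and on 86 of the members. The shares below are therefore of contigs whose description names RR-1 or RR-2, not of all contigs with that domain. Contigs described as cuticle or cuticular proteins without an RR label, 188 in all, summed to 65115 FPKM in 1st instars, 95252 in 5th instars and 22941 in adults. The RR contigs held 8.37% to 10.8% of the cuticular sum in 1st instars, 1.52% to 3.56% in 5th instars and 2.80% to 5.03% in adults. The 1st instar range did not overlap with the others. Of 127 such contigs tested, 35 were higher and 34 lower in adults than in 5th instars, 33 higher and 55 lower in adults than in 1st instars, and 37 higher and 14 lower in 1st than in 5th instars. The shares over all tested contigs were, in the same order, 7.31% and 19.7%, 14.1% and 31.6%, and 21.7% and 18.4%. Among the 37 chitin enzyme contigs, chitin synthases, chitinases and deacetylases included, the counts in the same order were 5 and 10, 8 and 9, and 7 and 7. Among the 42 contigs of tanning enzymes, such as laccase and dopa decarboxylase, they were 11 and 6, 18 and 9, and 5 and 11.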

How the data were processed

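Whole-body poly(A) RNA of 12 pools was sequenced by the authors as paired reads. Per the labels and the methods, the authors assembled contigs with Trinity, mapped reads with Bowtie 0.12.7 and estimated levels with RSEM 1.1.17, versions as in the submitters' processing notes. The deposited values are FPKM per contig and library, linear and not scaled further between libraries, with database descriptions. No read counts were used, and columns were matched to samples by name. All 12 columns of the table were used, although the methods name 8 libraries at the mapping step.

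Members were found by their nr description. Limma 3.58.1 (R 4.3.3, trend) was fitted on log2(FPKM + 1) where the mean over libraries reached 1 FPKM, in 1 fit with 3 stages, or with 4 groups for the sexes, with Benjamini-Hochberg adjusted p below 0.05. The fit was tested on simulated data. Contigs named are the 3 highest per class and stage, the 2 largest changes without overlap per class, comparison and direction, and the 1 largest between the sexes; a few others are named as chosen by their values. Lists of other cuticle, chitin and tanning contigs were matched by words. Members and lists were chosen with earlier results of these data known. Alternatives were pseudocount 0.1, no filter, a mean of at least 5, TPM, quantile normalization, fits of the groups compared, a replicate block, separate sexes, summed isoforms and each library left out. Python 3.11.15 with pandas 2.3.3 was used. No sequences were used here.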

Additional observations from a re-analysis of the deposited data

Results flagged for a closer look

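Single pools stood apart from the other 3 of their group in 10 of 80 groups of 4 values examined by the gap to the nearest value. The cutoff would give about 4 by chance for normally distributed values. The values were unlogged FPKM, and the adult groups mixed the sexes. Where the other 3 values were 0, any value was flagged, as for c56417_g1_i1 in 1st instars and c71246_g1_i1 and c18449_g2_i1 in adults. The counts of 10 and 4 therefore cannot be compared. In 1st instar larvae replicate 1 was the highest for c57651_g1_i1 (RR-2 motif 87), at 49.2 FPKM beside 38.8 to 40.6 in the others, and replicate 3 for c56417_g1_i1 (RR-2 motif 72), at 0.036 FPKM beside 0. In 5th instar larvae replicate 1 stood apart for c58857_g1_i1 (RR-1 motif 54, 9.20 FPKM), c52893_g2_i1 (RR-2 motif 59, 34.2 FPKM) and c92266_g1_i1 (RR-2 motif 65, 6.60 FPKM). Replicate 2 did so for c64198_g2_i1 (RR-2 motif 143, 7.99 FPKM), and replicate 3 had the lowest RR-2 share of the RR sum, 6.24%. In adults female replicate 4 stood apart for c71246_g1_i1 (RR-1 motif 53, 0.399 FPKM) and c18449_g2_i1 (RR-1 motif 45, 1.83 FPKM), and male replicate 2 for c92266_g1_i1 (0.552 FPKM). A reason for these values was not tested.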

How the results depend on the processing

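The counts below are of contigs called by limma, beside those of the report. Requiring a mean of at least 5 FPKM, which leaves 27 RR-1 and 9 RR-2 contigs, gave for adults against 5th instars 4 RR-1 and 2 RR-2 contigs higher, for adults against 1st instars 2 RR-1 and 0 RR-2 higher and 4 RR-2 lower, for 1st against 5th instars 5 RR-2 higher and 0 lower, and 1 RR-2 contig higher in males. With TPM, adults against 5th instars had 10 RR-2 contigs higher and 1 lower, adults against 1st instars 11 RR-1 higher, 1st against 5th instars 0 RR-2 lower, and males 0 RR-1 higher and 1 lower. Quantile normalization gave 0 RR-2 lower between larval stages, and 0 RR-1 higher and 1 lower in males. A fit of the compared groups alone gave 1 RR-2 contig lower in adults than in 5th instars, 3 higher than in 1st instars, 3 lower in 1st than in 5th instars and 1 higher in males. A pseudocount of 0.1 gave 3 RR-2 lower between larval stages, and 2 RR-1 higher and 2 lower in males. Without the filter 0 RR-2 were lower between larval stages, and 9 were higher and 1 lower in males, and summed isoforms gave 2 RR-2 lower between larval stages.

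Leaving out 1 library at a time, RR-2 contigs higher in adults ranged from 3 to 7 against 5th instars and from 3 to 5 against 1st instars, and those lower against 1st instars from 8 to 12. RR-2 contigs lower in 1st than in 5th instars ranged from 0 to 2. In males, RR-1 contigs higher ranged from 0 to 6 and lower from 0 to 4, and RR-2 contigs higher from 2 to 5 and lower from 0 to 1. Without the highest contig of each class over all libraries the RR-2 share was 21.4%, 6.81%, 22.9%, 27.3% and 18.5% in 1st instars, 5th instars, adults, males and females. Without the highest of each stage, chosen after the data were seen, it was 21.4%, 13.5%, 27.5%, 33.0% and 22.0%. The cause of these shifts was not tested beyond the smaller number of contigs or libraries.

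Deviations of same-numbered libraries from their stage means correlated at -0.160 to 0.0765, which gave no sign that the numbers pair the pools. Adult numbers follow the sex and each stage has 4 pools, so this check cannot settle whether pools were paired. With a replicate block, 4 RR-2 contigs in place of 6 were higher in adults than in 5th instars. Of the 51 calls of the 25 contigs named by the rule, 35 held under every alternative run, 16 were lost under at least 1 and 0 reversed. No read counts limit the values further: contigs below 1 FPKM, 48 of the 113, were described only by their levels.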

Other observations

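In adults, 3 RR-1 contigs similar to the locust endocuticle glycoprotein SgAbd-8 were unevenly spread over the pools, a pattern noticed in the values and not tested. The contig c80866_g1_i1, motif 43, was at 36.3 FPKM in female replicate 4 but at 0.078 in female replicate 3 and 1.19 and 0.288 in males. The contig c81327_g1_i1, motif 44, was at 29.8 FPKM in female replicate 4 and at 0.039 to 0.786 in the other adults. With c18449_g1_i1, motif 45, at 2.13 FPKM in that pool and 0.441 in the other female pool, contigs of 3 consecutive motif numbers were highest in female replicate 4 among adults. Other RR-1 contigs similar to SgAbd-8 differed. The contigs c49339_g1_i1 and c85676_g1_i1 were highest in female replicate 3, at 37.4 and 0.721 FPKM against 6.55 and 0.202 in replicate 4. For c37141_g1_i1 the highest adult value was 36.4 FPKM in male replicate 2, against 18.8 in female replicate 4. In larvae c80866_g1_i1 was at 5.29 to 28.4 FPKM in 1st and 9.91 to 81.1 in 5th instars, and c81327_g1_i1 at 6.36 to 24.3 in 1st and 1.64 to 4.22 in 5th instars.

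Some motif numbers occurred in more than 1 unigene. The 2 unigenes of RR-1 motif 45 were both highest in 5th instar larvae, those of RR-2 motifs 84, 87 and 98 in 1st instar larvae and those of motif 134 in adults. For RR-1 motifs 17, 26, 34 and 43 and RR-2 motifs 59, 63, 118 and 125, contigs of the same number differed in the stage of their highest mean. The 2 contigs of RR-1 motif 17, c50757_g1_i1 and c61587_g2_i1, were both low in 5th instar larvae (0 to 1.28 and 0.736 to 4.54 FPKM).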
